A study of Homo sapiens with 59 samples.

Results

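Neural stem cells that had been given CHIR99021 for 54 h were set against those given it for 48 h and for 60 h, the exposures on either side in the time course. Messenger RNA was sequenced in 3 libraries at 54 h, 2 libraries at 48 h and 3 libraries at 60 h, which are 8 of the 59 libraries of the course. The cells came from WA09, also called H9, which is a widely used human embryonic stem cell line. The cells of every group had received FGF8b at 200 ng per mL in E6 medium and were, with the ROCK inhibitor Y27632, subcultured on Day 2 into medium for neuromesodermal progenitors, where CHIR99021, an inhibitor of GSK3 that activates canonical WNT signalling, was applied for 48, 54 or 60 h. Medium with retinoic acid followed for 4 days before lysis, so RNA was taken days after CHIR99021 had been withdrawn. The groups differ in the labels only by the length of exposure, and longer exposure also meant longer culture. An automated platform renewed the progenitor medium on Day 4, and the sources used here give no clock times for renewals, medium switches or lysis. No group without CHIR99021 was analysed here.

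The 54 h time point was chosen from earlier results on these libraries, in which 6, 30 and 54 h stood apart from a smooth curve over the course. Its difference from 48 h and 60 h is therefore given as a description, without a p-value. The libraries are labelled A1, A2 and B1 at each time, and the third library of 48 h was left out by the submitters for its many genes without counts. The labels do not say that these were separate cultures, so spreads and p-values measure only the variation between libraries, which may be technical. Values are in TPM, each library's transcript abundances corrected for length and scaled to a common sum, and the depth behind them is unknown. Differences were taken in log2(TPM + 1), where the change of a gene with few transcripts comes out too small. Each is 54 h minus the mean of the 48 h and 60 h means unless stated otherwise, with its standard error (SE).

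Cells short of oxygen stabilise hypoxia-inducible factors, which switch on genes for glucose uptake, glycolysis, lactate export and removal of mitochondria. Ribosome biogenesis is the nucleolar work of transcribing, cutting and folding ribosomal RNA and joining it to ribosomal proteins; it is raised in growing cells and is a known target of the transcription factor MYC. Cholesterol synthesis is switched on by the SREBP factors, which INSIG proteins hold in the endoplasmic reticulum when sterols are plentiful. Genes of these processes are active to some degree in most dividing neural progenitors.

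The label of neural stem cells was checked against marker genes. All 10 neural progenitor markers, SOX2, PAX6 and NES among them, and all 8 neuron markers were above 0 in each of the 8 libraries. The summed level of the progenitor markers was 1805 to 1957 TPM at 54 h, against 1669 to 2530 TPM at 48 h and 60 h. That of the neuron markers was 339 to 391 TPM at 54 h, below the 409 to 496 TPM at 48 h and 60 h. Of 5 endoderm markers, 4 were listed at 0 in all 8 libraries, and the 5 epithelial markers summed to 405 to 463 TPM at 54 h, against 298.5 to 504 TPM at 48 h and 60 h. Neural crest, mesoderm, endothelial and blood, and pluripotency markers each summed to at most 47.4 TPM at 54 h and 52.7 TPM at 48 h and 60 h. Between 12399 and 12683 genes had at least 1 TPM at 54 h, against 12132 to 12623 at 48 h and 60 h. In bulk samples such as these, fewer cells of a type and less RNA per cell cannot be told apart.

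Promoters are shown for 3 genes of the hypoxia response that were lower at 54 h and 3 genes of ribosome biogenesis that were higher. They are the called members with the largest such differences, among those considered, that hold the motif below and had a sequence to print. The choice left out a chromosome, so members on it were passed over whether or not they hold the motif. Each window runs from 250 bases before to 50 bases after the first start that RefSeq lists for the gene in GRCh38.p14, 5′ to 3′ on the gene's strand. In the first set capitals mark ACGTG on either strand, a core bound by hypoxia-inducible factors. BHLHE40 is at chr3:4979187-4979486, ANKRD37 at chr4:185396591-185396890 and DDIT4 at chr10:72273674-72273973, all on the plus strand.
BHLHE40: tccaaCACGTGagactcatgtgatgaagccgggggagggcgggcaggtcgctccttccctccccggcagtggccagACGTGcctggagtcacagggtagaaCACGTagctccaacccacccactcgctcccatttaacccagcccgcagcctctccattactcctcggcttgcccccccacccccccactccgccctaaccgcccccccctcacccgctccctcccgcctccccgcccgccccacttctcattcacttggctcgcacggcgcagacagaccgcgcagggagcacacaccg
ANKRD37: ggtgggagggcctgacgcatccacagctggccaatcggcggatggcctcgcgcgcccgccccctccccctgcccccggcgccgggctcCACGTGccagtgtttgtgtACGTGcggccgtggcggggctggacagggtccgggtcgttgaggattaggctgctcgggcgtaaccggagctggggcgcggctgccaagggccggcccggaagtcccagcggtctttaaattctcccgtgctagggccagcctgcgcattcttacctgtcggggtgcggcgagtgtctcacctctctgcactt
DDIT4: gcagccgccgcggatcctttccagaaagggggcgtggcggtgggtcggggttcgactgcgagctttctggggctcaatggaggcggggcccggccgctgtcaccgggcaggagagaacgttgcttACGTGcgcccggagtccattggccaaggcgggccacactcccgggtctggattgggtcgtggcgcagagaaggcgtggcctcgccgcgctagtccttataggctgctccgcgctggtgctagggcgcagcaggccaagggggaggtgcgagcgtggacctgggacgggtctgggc

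In the second set capitals mark CACGTG, a palindrome bound by MYC with its partner MAX and by other factors of that class. Every CACGTG also holds ACGTG on both strands, so the motifs overlap. PNO1 is at chr2:68157638-68157937 on the plus strand, NOP2 at chr12:6568242-6568541 on the minus strand and MYBBP1A at chr17:4555335-4555634 on the minus strand.
PNO1: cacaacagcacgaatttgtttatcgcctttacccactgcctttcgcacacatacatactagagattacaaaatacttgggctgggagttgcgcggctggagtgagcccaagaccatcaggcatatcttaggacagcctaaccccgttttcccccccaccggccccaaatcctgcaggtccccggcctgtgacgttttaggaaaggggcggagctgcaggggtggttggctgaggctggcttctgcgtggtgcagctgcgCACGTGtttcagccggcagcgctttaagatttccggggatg
NOP2: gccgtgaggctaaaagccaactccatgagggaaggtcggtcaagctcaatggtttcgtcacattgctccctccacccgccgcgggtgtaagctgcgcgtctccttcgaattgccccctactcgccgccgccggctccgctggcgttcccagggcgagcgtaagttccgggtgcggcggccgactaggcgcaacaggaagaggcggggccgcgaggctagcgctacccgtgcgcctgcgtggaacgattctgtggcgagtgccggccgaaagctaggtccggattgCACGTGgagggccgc
MYBBP1A: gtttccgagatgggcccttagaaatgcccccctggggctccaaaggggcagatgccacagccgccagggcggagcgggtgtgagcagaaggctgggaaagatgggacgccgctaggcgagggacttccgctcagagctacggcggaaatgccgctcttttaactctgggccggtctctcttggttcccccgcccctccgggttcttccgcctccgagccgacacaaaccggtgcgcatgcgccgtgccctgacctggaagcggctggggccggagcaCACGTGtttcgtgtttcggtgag

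Over the 27305 genes with a window of 300 bases, 21.6% held ACGTG and 7.43% held CACGTG. A window was matched for 842 of the 1001 genes called higher at 54 h, of which 31.4% held ACGTG and 13.5% held CACGTG. For the 277 genes called lower, 237 were matched, of which 30.0% held ACGTG and 12.7% held CACGTG. Among the 11184 matched genes that were tested and not called, the shares were 25.0% and 9.34%. Of 30 hypoxia response genes 24 were matched, of which 11 held ACGTG (45.8%) and 4 held CACGTG. Of 35 ribosome biogenesis genes 29 were matched, of which 14 held ACGTG (48.3%) and 10 held CACGTG (34.5%). Over all matched members, ACGTG was thus about as frequent in ribosome biogenesis as in hypoxia response. Among called members alone, 7 of 13 matched hypoxia response genes held ACGTG (53.8%) and 3 held CACGTG. Of 13 matched ribosome biogenesis genes that were called, 5 held ACGTG (38.5%) and 5 held CACGTG. All 20 glycolysis genes were matched, and 9 held ACGTG. These shares describe letters in a window and were not tested.

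At 54 h, 16 of 30 hypoxia response genes, 13 of 20 glycolysis genes and 10 of 24 cholesterol synthesis genes were called lower than at 48 h and 60 h, and 18 of 35 ribosome biogenesis genes were called higher. None of the other members of these lists was called in the opposite direction. Of 15305 genes tested, 1278 were called with limma at an adjusted p under 0.05, 1001 of them higher and 277 lower. The shares called were 6.54% higher and 1.81% lower, and since the comparison chose the time point, nothing is read from them. All 3 libraries of 54 h lay above all 5 libraries of 48 h and 60 h for 12.9% of tested genes and below them for 4.47%. Among called genes, 546 were at least 1 log2 unit higher and 166 at least 1 lower. The mean at 54 h lay above both neighbours' means for 992 called genes, below both for 272 and between them for 14.

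The balance of higher and lower calls depended on scaling. The median difference over all tested genes was 0.10 as deposited, 0.00 after quantile normalization and -0.01 after median-ratio scaling. Calls split into 1001 higher and 277 lower as deposited, 669 and 508 after quantile normalization, and 590 and 579 after median-ratio scaling. The 100 highest genes took 23.6% to 24.2% of the TPM at 54 h, against 25.3% to 37.3% at 48 h and 60 h, and the part of this in the result was not tested. Leaving out 54 h A1, A2 or B1 gave 784, 788 and 784 calls. Leaving out 3 sparse libraries of other times (4 h B1, 42 h B1 and 72 h A2), which enter only the estimate of spread, gave 2598 calls. Just inside the threshold lay AASS at 0.70 and TMEM87A at 0.85, and just outside it DIMT1 at 1.71 and ARHGEF12 at 0.64.

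Of 30 hypoxia response genes, 16 were called lower at 54 h and none higher, with a median difference of -1.17. The count was 11 to 22 over the alternatives tried, and the median stayed between -1.38 and -1.00. For 18 members all 3 libraries of 54 h lay below all 5 others, as they did for 4.47% of all tested genes. BNIP3, a receptor that marks mitochondria for removal, had 56.4, 70.6 and 51.3 TPM at 54 h, compared with 278 and 307 TPM at 48 h and 380.0, 463 and 561 TPM at 60 h. Every library of 54 h was below every other, and the difference was -2.62 ± 0.20 (SE).

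DDIT4, an inhibitor of the growth kinase complex mTORC1, had 134, 92.3 and 183 TPM at 54 h, compared with 797 and 806 TPM at 48 h and 944, 1155 and 1138 TPM at 60 h, a difference of -2.81 ± 0.21. The highest library of 54 h lay far below the lowest neighbour.

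PFKFB4, an enzyme that sets the level of a sugar phosphate activating glycolysis, had 4.75, 10.6 and 3.44 TPM at 54 h, compared with 40.2 and 60.8 TPM at 48 h and 101, 154 and 137 TPM at 60 h. Its groups did not overlap and the difference was -3.60 ± 0.42, while the libraries of 60 h were themselves above those of 48 h.

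BHLHE40, a transcriptional repressor, had the lowest difference of all tested genes at -3.86 ± 0.80, with 0, 0.3 and 0.6 TPM at 54 h, compared with 5.9 and 7.26 TPM at 48 h and 29, 53.2 and 56.4 TPM at 60 h. It was near or at 0 in every library of 54 h and highest at 60 h. Against 48 h alone it was not called.

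ANKRD37, an ankyrin repeat protein induced by hypoxia, had 0, 8.87 and 2.62 TPM at 54 h, compared with 30.6 and 37.1 TPM at 48 h and 24, 34.9 and 49.2 TPM at 60 h. The groups did not overlap, though the libraries of 54 h varied widely among themselves, and without 54 h A1, which was listed at 0, the gene was not called.

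KDM3A, a histone demethylase, had 24, 20.1 and 29.9 TPM at 54 h, compared with 88 and 79.7 TPM at 48 h and 121, 157 and 132 TPM at 60 h, a difference of -2.09 ± 0.19. MXI1, an antagonist of MYC, had 15, 14.7 and 10.1 TPM at 54 h, compared with 59.1 and 114 TPM at 48 h and 58.1, 86.4 and 73 TPM at 60 h. STC1, a secreted glycoprotein, had 12.3, 7.68 and 4.02 TPM at 54 h, compared with 28.6 and 32.4 TPM at 48 h and 60.0, 117 and 136 TPM at 60 h, with 54 h again below every neighbour.

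INSIG2, which retains SREBP in the endoplasmic reticulum, was at 20.7 to 26.5 TPM at 54 h, against 70.2 to 215 TPM at 48 h and 60 h, and the differences of the glucose transporters SLC2A3 and SLC2A1 were -1.31 and -1.05. P4HA1, a subunit of the enzyme that hydroxylates collagen, was at 168 to 210.1 TPM at 54 h, against 412 to 539 TPM at 48 h and 60 h. EGLN1 and EGLN3, the hydroxylases that mark hypoxia-inducible factors for degradation, differed by -1.09 and -1.25.

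Some members were not called. VEGFA, a growth factor for blood vessels, was at 23.9 to 34.2 TPM at 54 h, against 27.4 to 64.7 TPM at 48 h and 60 h, with overlapping groups and a difference of -0.74 ± 0.29. ADM, a vasodilator peptide, was at 32.6 to 50.9 TPM at 54 h, against 22.8 to 121 TPM at 48 h and 60 h, and WSB1, a ubiquitin ligase component, was at 113 to 136 TPM at 54 h, against 66.9 to 142 TPM at 48 h and 60 h. PDK1, which blocks entry of pyruvate into the citric acid cycle, had 20.6, 37.2 and 33 TPM at 54 h, compared with 37.1 and 46 TPM at 48 h and 161, 207 and 205 TPM at 60 h. It was called lower, but the values at 54 h overlapped those at 48 h and only those at 60 h stood apart.

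**Figure D1:**
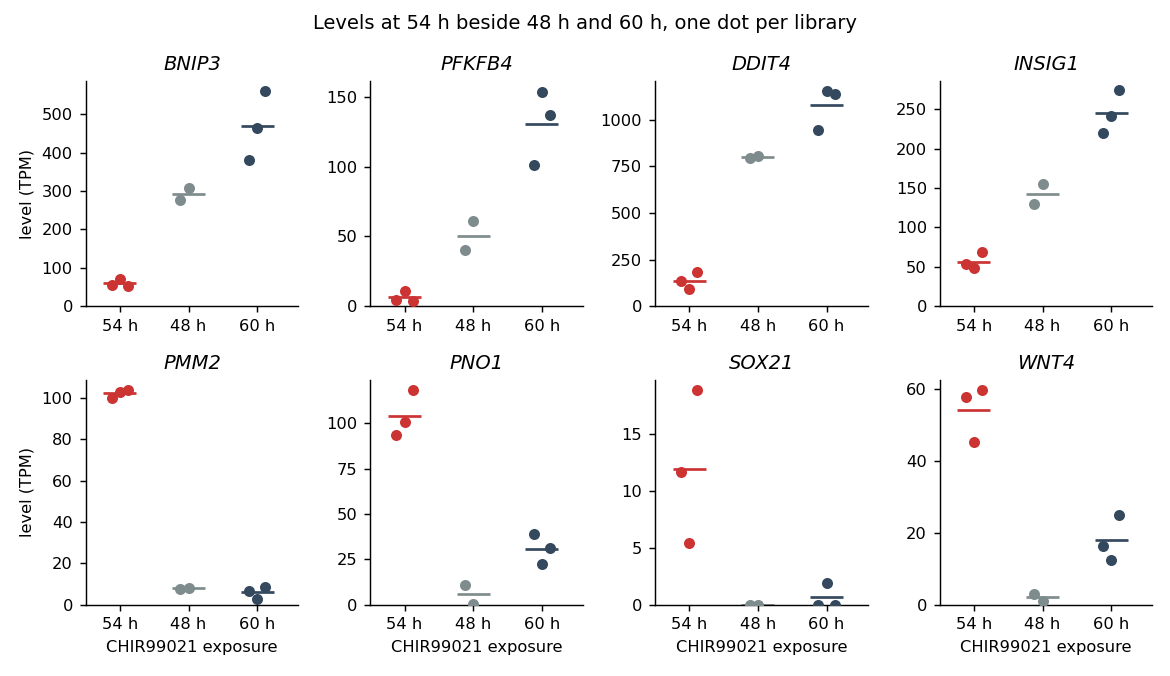
Level in TPM (y axis, linear, a scale for each gene) of 8 genes at 54 h, 48 h and 60 h (x axis), with 1 dot per library and a line at the mean. BNIP3, PFKFB4, DDIT4 and INSIG1 lie below both neighbours at 54 h and PMM2, PNO1, SOX21 and WNT4 lie above both.

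Of 20 glycolysis genes, 13 were called lower at 54 h and none higher, with a median difference of -0.67. SLC16A3, which exports lactate, had 23.8, 49.3 and 45.4 TPM at 54 h, compared with 231 and 201 TPM at 48 h and 198, 365 and 331 TPM at 60 h, a difference of -2.69 ± 0.37. HK2, a hexokinase that phosphorylates glucose at the entry to the pathway, had 25.4, 19.9 and 25.5 TPM at 54 h. It had 94.9 and 80.8 TPM at 48 h and 139.8, 230.1 and 232 TPM at 60 h. In both genes the highest library of 54 h lay far below the lowest neighbour.

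LDHA, which turns pyruvate into lactate, had 1009, 1139 and 1004 TPM at 54 h, compared with 2142 and 1569 TPM at 48 h and 2573, 2281 and 2272 TPM at 60 h, a difference of -0.99 ± 0.17. PFKP, a phosphofructokinase, was at 31.9 to 51.1 TPM at 54 h, against 70.6 to 119.9 TPM at 48 h and 60 h, and ENO2, an enolase, was at 84.8 to 104 TPM at 54 h, against 161 to 249.7 TPM at 48 h and 60 h. The abundant steps differed less: PGK1 by -0.62, TPI1 by -0.63, ENO1 by -0.51 and ALDOA by -0.48.

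GAPDH was not called, at 3589.6 to 4139.7 TPM at 54 h, against 3521 to 5246 TPM at 48 h and 60 h. PFKM, another phosphofructokinase, was not called either, at 134 to 146 TPM at 54 h, against 94 to 157 TPM at 48 h and 60 h. The count of 13 was 8 without 48 h A1 or 54 h A2, 7 without 54 h B1 and 8 against 48 h alone, and the median stayed between -0.88 and -0.56 in the alternatives tried. None of 35 subunits of oxidative phosphorylation, the mitochondrial route to ATP, was called with limma in the same fit, with a median of -0.09. At an unadjusted p under 0.05 by limma there were 7 of the 35, beside 3124 of all 15305 tested genes. Nothing is read from that count.

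Of 9 tested genes that FOXO factors or insulin signalling control, 5 were called lower, and the median was -0.90. Over all tested genes, 1.81% were called lower. CCNG2, an atypical cyclin that restrains the cell cycle, had 37.4, 40.5 and 40.0 TPM at 54 h, compared with 83.5 and 122 TPM at 48 h and 81.4, 144 and 155 TPM at 60 h, with no overlap. CITED2, a transcriptional co-regulator, was at 51.3 to 60.4 TPM at 54 h, against 80.5 to 191 TPM at 48 h and 60 h, and SESN3, a stress protein that restrains mTORC1, was at 43.4 to 60.7 TPM at 54 h, against 77.3 to 198 TPM at 48 h and 60 h. The count was 1 without 48 h A2, without 54 h A1, against 60 h alone or with only the contrast's libraries in the fit, and 2 without 54 h A2.

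Of 35 ribosome biogenesis factors, 18 were called higher at 54 h and none lower, with a median difference of 1.51. The count was 12 to 26 over the alternatives tried and the median 1.05 to 1.75. For 24 members all 3 libraries of 54 h lay above all 5 others, as they did for 12.9% of all tested genes. PNO1, which acts late in the maturation of the small subunit, had 93.6, 100.5 and 118 TPM at 54 h, compared with 10.7 and 0.67 TPM at 48 h and 38.8, 22.5 and 31.2 TPM at 60 h. It was low at 48 h, intermediate at 60 h and highest at 54 h, with a difference of 3.16 ± 0.57, but it was not called against 60 h alone.

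RRS1, which helps build the large subunit, had 103, 91.1 and 123 TPM at 54 h, compared with 8.8 and 5.9 TPM at 48 h and 19, 15.6 and 19.5 TPM at 60 h, a difference of 3.09 ± 0.57. The 3 libraries of 54 h lay well above all others. DDX21, a nucleolar helicase, had 359, 382 and 362 TPM at 54 h, compared with 58.7 and 71.8 TPM at 48 h and 110.5, 143 and 113 TPM at 60 h. NOP58, a core protein of the particles that methylate ribosomal RNA, had 135, 162 and 189.7 TPM at 54 h, compared with 26.8 and 23 TPM at 48 h and 31.9, 46.3 and 36.3 TPM at 60 h.

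NIP7, a pre-ribosomal factor, had 199, 177 and 186 TPM at 54 h, compared with 24.6 and 57.4 TPM at 48 h and 68.2, 86.7 and 77 TPM at 60 h, and its groups stood clear of each other. GNL3, a nucleolar GTPase known from stem cells, was at 474 to 528 TPM at 54 h, against 134 to 243 TPM at 48 h and 60 h, and DKC1, the pseudouridine synthase, was at 186 to 213 TPM at 54 h, against 55.6 to 101 TPM at 48 h and 60 h. POLR1B, the second largest subunit of RNA polymerase I, was at 35.1 to 63.3 TPM at 54 h, against 12.1 to 22.3 TPM at 48 h and 60 h. NOLC1 and RRP1B differed by 1.55 and 1.64.

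FBL, the methylase of ribosomal RNA, NPM1, nucleophosmin, and NHP2, a partner of DKC1, had negative differences and were not called. FBL was at 123 to 148 TPM at 54 h, against 166 to 236 TPM at 48 h and 60 h, and NPM1 at 4169 to 4357 TPM at 54 h, against 3633 to 6508 TPM at 48 h and 60 h. NHP2 was at 93.8 to 124 TPM at 54 h, against 85.1 to 171 TPM at 48 h and 60 h. NCL, nucleolin, was at 2677 to 2816 TPM at 54 h, against 1432 to 2556 TPM at 48 h and 60 h, above every neighbour yet not called.

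The proteins of the ribosome itself were a separate list. Of 32 cytosolic ribosomal protein genes none was called higher and 4 were called lower, with a median of -0.38, and all 32 differences were negative as deposited. Over all tested genes, 6.54% were called higher and 1.81% lower. RPS4X had 5585, 5341 and 5662 TPM at 54 h, compared with 8792 and 8435 TPM at 48 h and 7180.3, 5850.3 and 5468 TPM at 60 h, a difference of -0.39 ± 0.11 that became 0.02 after quantile normalization. RPL7A was at 1814 to 2094 TPM at 54 h, against 2216 to 4111 TPM at 48 h and 60 h and RPS9 at 855 to 929 TPM at 54 h, against 966 to 2642 TPM at 48 h and 60 h. The median was -0.09 after quantile normalization and -0.59 after median-ratio scaling, and the count of calls was between 0 and 15 over the alternatives: it was 10 without 48 h A2, 7 without 60 h A2, 2 without 54 h A1, 54 h B1 or 60 h A1, and 1 without 48 h A1 or 54 h A2. The share taken by the 100 highest genes, given above, was lower in the same libraries of 54 h, and its part in this was not tested.

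**Figure D2:**
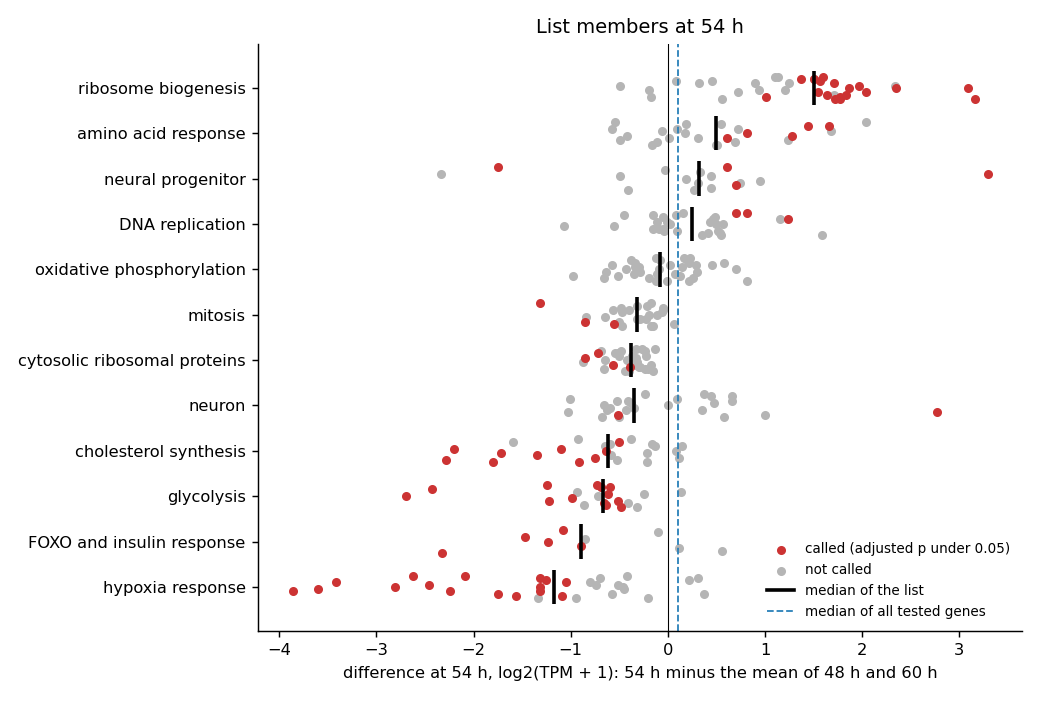
Difference at 54 h in log2(TPM + 1), 54 h minus the mean of 48 h and 60 h (x axis), for the tested members of 12 gene lists (rows), red where called and grey where not; the black bar is the list's median and the dashed line the median of all tested genes. Hypoxia response (-1.17) and ribosome biogenesis (1.51) lie farthest apart.

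Of 24 cholesterol synthesis genes, 10 were called lower at 54 h and none higher, with a median of -0.62. INSIG1 had 53.5, 47.8 and 68.5 TPM at 54 h, compared with 129 and 155 TPM at 48 h and 220.1, 241 and 274 TPM at 60 h. Its groups did not overlap and the difference was -1.72 ± 0.16. HSD17B7, a reductase of the sterol pathway, had 31.3, 13.8 and 14.8 TPM at 54 h, compared with 51.5 and 85.1 TPM at 48 h and 114, 133 and 159 TPM at 60 h, with 54 h below every neighbour.

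STARD4, a carrier of cholesterol, had 116, 108 and 122 TPM at 54 h, compared with 208 and 369.7 TPM at 48 h and 448, 709 and 631 TPM at 60 h. FDFT1, squalene synthase, was at 271 to 296 TPM at 54 h, against 490.5 to 763 TPM at 48 h and 60 h, and MSMO1, a methyl sterol oxidase, was at 93.5 to 114 TPM at 54 h, against 164 to 362 TPM at 48 h and 60 h.

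HMGCS1, a synthase early in the pathway, was called lower and overlapped 48 h, at 432 to 503 TPM at 54 h, against 484 to 1119 TPM at 48 h and 60 h. SQLE, squalene epoxidase, was at 232 to 287 TPM at 54 h, against 202 to 416 TPM at 48 h and 60 h and was not called, nor was SREBF2, which encodes an SREBP factor, at 99.8 to 112 TPM at 54 h, against 72.5 to 180.3 TPM at 48 h and 60 h. The count was 5 against 48 h alone, and the median stayed between -0.90 and -0.40. Of 11 fatty acid synthesis genes only FADS1 was called, at 143 to 169 TPM at 54 h, against 191 to 293 TPM at 48 h and 60 h.

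Beyond these lists, the highest and lowest differences among called genes without overlap fell on genes of varied roles. PMM2, a phosphomannomutase needed to glycosylate proteins, had 99.7, 103 and 104 TPM at 54 h, compared with 7.53 and 8.21 TPM at 48 h and 6.63, 2.7 and 8.79 TPM at 60 h. The libraries of 54 h agreed closely and none of the others came near them, with a difference of 3.76 ± 0.40.

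WNT4, a secreted WNT ligand, had 57.8, 45.3 and 59.7 TPM at 54 h, compared with 3.05 and 1.02 TPM at 48 h and 16.5, 12.5 and 25 TPM at 60 h. It was higher at 54 h than in any neighbour, and the libraries of 60 h also lay above those of 48 h. It was not called against 60 h alone. DCAF4, a substrate receptor of a ubiquitin ligase, had 35.1, 26.3 and 26.2 TPM at 54 h, compared with 5.22 and 0.42 TPM at 48 h and 1.08, 2.06 and 3.49 TPM at 60 h, a difference of 3.31 ± 0.65.

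PPAN-P2RY11, a readthrough transcript, had 31.4, 21.6 and 39.9 TPM at 54 h, compared with 0 and 0 TPM at 48 h and 0.65, 0 and 2.59 TPM at 60 h. Its reads are shared with PPAN, which was at 18.7 to 52.2 TPM at 54 h, against 6.94 to 24.7 TPM at 48 h and 60 h and was not called, so how the reads divide between them is uncertain. ATAD3B, a mitochondrial membrane protein with the close paralog ATAD3A, was at 63.2 to 95.7 TPM at 54 h, against 2.43 to 49.6 TPM at 48 h and 60 h. LOC375190, which matched no RefSeq name, was at 6.72 to 9.38 TPM at 54 h, against 0 to 1.58 TPM at 48 h and 60 h.

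DUSP2, a phosphatase of MAP kinases, had 10.5, 9.17 and 2.51 TPM at 54 h, compared with 0 and 0 TPM at 48 h and 0, 0 and 0 TPM at 60 h, and BHLHA15, a transcription factor of secretory cells, had 14.2, 11.8 and 3.49 TPM at 54 h, compared with 0 and 0 TPM at 48 h and 0, 0 and 0 TPM at 60 h. Both were listed at 0 in all 5 libraries of 48 h and 60 h. ONECUT1, a transcription factor of several neuron types and of liver, was at 7.12 to 17.9 TPM at 54 h, against 0 to 3.34 TPM at 48 h and 60 h, and it was not called without 48 h A2, 54 h A2 or 54 h B1.

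On the lower side, HBP1, a transcriptional repressor that restrains the cell cycle, had 5.01, 6.97 and 6.37 TPM at 54 h, compared with 62.1 and 73.2 TPM at 48 h and 42.1, 53.2 and 49.3 TPM at 60 h. Its values at 54 h were tight and far below the others, a difference of -3.03 ± 0.26. C6orf57, which RefSeq names SDHAF4 and which helps assemble succinate dehydrogenase, had 5.79, 12.5 and 53.5 TPM at 54 h, compared with 134 and 266 TPM at 48 h and 163, 239.9 and 143 TPM at 60 h. Here 54 h B1 stood nearer the neighbours than the other 54 h libraries did.

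C5orf4, which RefSeq names FAXDC2, was at 0.4 to 1.21 TPM at 54 h, against 7 to 18.5 TPM at 48 h and 60 h, and NUDT18, a hydrolase of the nudix family, was listed at 0 in every library of 54 h and had 5.77, 4.16 and 11.7 TPM at 60 h and 2.83 and 11.3 TPM at 48 h. NUDT18 was not called without 48 h A2. GPR20, an orphan receptor, was at 0 to 7.76 TPM at 54 h, against 25.7 to 29 TPM at 48 h and 60 h and was not called without 48 h A1, 48 h A2 or 54 h A1.

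Of 16 tested neural progenitor genes, 3 were called higher and 1 lower, where 6.54% of all tested genes were called higher and 1.81% lower. SOX21, a progenitor transcription factor, had 11.7, 5.41 and 18.9 TPM at 54 h, compared with 0 and 0 TPM at 48 h and 0, 1.95 and 0 TPM at 60 h, with the neighbours at or near 0. NES, the intermediate filament nestin, had 456, 419 and 499 TPM at 54 h, compared with 387 and 269 TPM at 48 h and 256, 244 and 232 TPM at 60 h, with 54 h above all others. LIN28B, an RNA-binding protein of early progenitors, was at 148 to 185 TPM at 54 h, against 85.6 to 164 TPM at 48 h and 60 h; it was not called after either rescaling or without 48 h A1, 54 h A2, 54 h B1 or 60 h A1. SOX9, a factor of glial fate, was the gene called lower, at 4.95 to 6.25 TPM at 54 h, against 17.9 to 25.7 TPM at 48 h and 60 h, and it lost its call whichever of the 8 libraries was left out. The progenitor factors SOX2 and PAX6 were not called. SOX2 was at 81.2 to 88.3 TPM at 54 h, against 76.3 to 148 TPM at 48 h and 60 h. PAX6 was at 131 to 134 TPM at 54 h, against 85.7 to 194 TPM at 48 h and 60 h.

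Among 25 tested neuron genes, ONECUT1 was called higher and MAP2, a microtubule protein of dendrites, lower, at 85.2 to 107 TPM at 54 h, against 108 to 166 TPM at 48 h and 60 h; MAP2 was not called without 48 h A2, 60 h A2, 60 h B1 or any library of 54 h. Of 25 mitosis genes 3 were called lower and none higher, and 12 had no overlap, all of them lower at 54 h. Over all tested genes, 6.54% were called higher and 1.81% lower, and 4.47% had all 3 libraries of 54 h below all 5 others. HMMR, a spindle protein, had 40.1, 35.4 and 34.7 TPM at 54 h, compared with 87 and 61.1 TPM at 48 h and 131, 106 and 117 TPM at 60 h. BUB1B, a checkpoint kinase, was at 39 to 53.6 TPM at 54 h, against 67.6 to 104 TPM at 48 h and 60 h and NUSAP1, a spindle protein, at 107 to 145 TPM at 54 h, against 147 to 243 TPM at 48 h and 60 h. The count was 1 without 54 h A1, 7 after either rescaling and 0 against 48 h alone.

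Of 30 DNA replication genes 3 were called higher, RPA2, RFC3 and CDC6, and none lower, where 6.54% of all tested genes were called higher. The median of the list was 0.25, but -0.04 against 60 h alone, so the list as a whole did not stand above 60 h. RPA2, a subunit of the protein that coats single-stranded DNA, was at 289 to 341 TPM at 54 h, against 146 to 216 TPM at 48 h and 60 h. The count was 1 without 48 h A2, 54 h A2 or 54 h B1. The summed neuron markers given above were lower at 54 h in the same libraries. Over the 25 tested neuron genes, 14 differences were negative and 10 positive. The part of this in these lists was not tested.

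Of 25 tested genes of the amino acid response, the programme that ATF4 drives when amino acids run short, 5 were called higher and none lower. Over all tested genes, 6.54% were called higher. ATF4 itself was at 248 to 272 TPM at 54 h, against 126 to 206 TPM at 48 h and 60 h, SLC7A5, which imports large neutral amino acids, had 98.7, 112 and 119 TPM at 54 h, compared with 9.91 and 27.7 TPM at 48 h and 71.1, 53 and 86.5 TPM at 60 h, and GARS, the glycyl-tRNA synthetase, was at 239 to 284 TPM at 54 h, against 87.8 to 128 TPM at 48 h and 60 h. All 3 libraries of 54 h lay above the rest in each of these genes. The count was 2 after either rescaling, and 2 or 3 whichever of the 8 libraries was left out.

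Of 15 tested core clock genes 3 were called higher, where 6.54% of all tested genes were called higher. PER2, a repressor of the clock, had 12, 11.3 and 16.2 TPM at 54 h, compared with 3.92 and 7.25 TPM at 48 h and 1.9, 2.91 and 0.71 TPM at 60 h, and TEF, an output factor, was at 33.4 to 36.9 TPM at 54 h, against 5.35 to 26.4 TPM at 48 h and 60 h. NR1D2, a nuclear receptor of the clock, was at 62.9 to 77 TPM at 54 h, against 26.4 to 83.9 TPM at 48 h and 60 h; it was near the 48 h values and above those of 60 h, with a difference of -0.06 from 48 h alone. None of the 3 was called without 48 h A1 or without any one library of 54 h, and the count was 1 without 60 h B1 and after either rescaling.

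Of 23 tested HOX genes, the regulators of regional identity from hindbrain to tail, 1 was called at 54 h, with a median difference of 0.25. Over all tested genes, 6.54% were called higher and 1.81% lower, with a median of 0.10. HOXB9 had 150.0, 155 and 163 TPM at 54 h, compared with 35.5 and 42.7 TPM at 48 h and 262, 331 and 403 TPM at 60 h. Every library of 54 h lay between the 2 neighbours, and the difference from their mean was 0.46 ± 0.39. HOXC6, the gene called, was listed at 0 in all libraries of 54 h and 48 h and had 12.9, 5 and 11.5 TPM at 60 h, so its call rests on 60 h. HOXA2, of the hindbrain, had 48.5, 39.4 and 43.1 TPM at 54 h, compared with 14.7 and 12.5 TPM at 48 h and 18.5, 16.9 and 24.6 TPM at 60 h, above every neighbour yet not called. HOXB8 was at 159 to 193 TPM at 54 h, against 77.5 to 229.8 TPM at 48 h and 60 h.

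Of 20 genes that respond to or make retinoic acid, 1 was called higher and 3 lower, where 6.54% of all tested genes were called higher and 1.81% lower. RARB, a receptor induced by retinoic acid, had 39.1, 54.8 and 48.7 TPM at 54 h, compared with 104 and 133 TPM at 48 h and 80.6, 92.9 and 103 TPM at 60 h, with no overlap. MEIS2, a cofactor of HOX proteins, was at 275 to 324 TPM at 54 h, against 139.8 to 234 TPM at 48 h and 60 h, and it was not called without 48 h A1. ALDH1A3, a retinaldehyde dehydrogenase, was listed at 0 in every library of 54 h and was at 0.49 to 5.57 TPM in the others, and it lost its call without 48 h A2, 60 h A2, 60 h B1 or any library of 54 h. ALDH1A1, another retinaldehyde dehydrogenase, had 41.2, 40.5 and 57.9 TPM at 54 h, compared with 452 and 279.6 TPM at 48 h and 16.4, 30.3 and 39.1 TPM at 60 h. It stood with 60 h and not with 48 h: its difference was -1.09 against the mean of the neighbours and 0.75 against 60 h alone, and it was not called without 48 h A1, 54 h A1 or 54 h A2.

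The 2 neighbours also differed from each other, by a comparison that used no library of 54 h. With limma, 260 genes were higher at 60 h than at 48 h and 84 were lower, 1.7% and 0.549% of those tested. Of these, 137 were called at 54 h too, which is 39.8% of the 344 and 10.7% of the 1278. The count was 189 without 48 h A2, 167 without 60 h A2 and 181 without 60 h B1. With only these 5 libraries in the fit it was 23, and the balance turned over, with 4 higher and 19 lower at 60 h. Without the 3 sparse libraries of other times it was 1087, with 815 higher and 272 lower. Quantile normalization split 303 calls into 174 higher and 129 lower, and median-ratio scaling split 295 into 157 and 138.

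OLIG3, a transcription factor of dorsal spinal progenitors, had 68.3, 52.5 and 124 TPM at 60 h, compared with 1.36 and 0.45 TPM at 48 h, a difference of 5.39 ± 0.75 (adjusted p = 6.15e-06 by limma). At 54 h it had 24.1, 64.8 and 68.8 TPM, near the 60 h values. HAPLN1, a link protein of the matrix, had 20.2, 21.8 and 30.7 TPM at 60 h, compared with 0.72 and 0 TPM at 48 h (4.24 ± 0.60, adjusted p = 8.69e-06), and at 54 h it lay between them at 4.81 to 10.6 TPM.

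CCDC140 and LGALS3, the lectin galectin, differed by 4.02 ± 0.76 and 4.35 ± 1.00 (adjusted p = 0.00088 and 0.00973 by limma), and STEAP1B by 3.47 ± 0.92 (adjusted p = 0.0315). CCDC140 and STEAP1B were listed at 0 in both libraries of 48 h, and LGALS3 had 1.2 and 0 TPM there, so these sizes depend on the pseudocount. EMG1, a methylase of ribosomal RNA, differed by 3.50 ± 0.67 (adjusted p = 0.00101), with 48 h A2 listed at 0. ALDH1A1 had the smallest adjusted p among genes lower at 60 h (-3.67 ± 0.38, adjusted p = 4.09e-09). SFRP5, a secreted WNT antagonist, had 4.91, 1.48 and 0 TPM at 60 h, compared with 27.1 and 25.1 TPM at 48 h (-3.47 ± 0.56, adjusted p = 7.1e-05), and at 54 h it lay between them at 11.4 to 15.1 TPM. TM4SF4, a membrane protein of the tetraspanin type, fell at 60 h by 3.79 on the log2 scale (adjusted p = 0.00049). The differences of SLC5A9, ECHDC2 and PSMB8 were -4.07, -3.65 and -3.29, with adjusted p of 0.00608, 0.0354 and 0.0304 by limma. SLC5A9 and PSMB8 were listed at 0 in every library of 60 h, and ECHDC2 had 0, 0 and 2.69 TPM there. At 48 h SLC5A9 had 13.2 and 18.8 TPM, ECHDC2 23.0 and 14.7 TPM and PSMB8 7.74 and 10.0 TPM. The sizes of these differences therefore depend on the pseudocount.

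**Figure D3:**
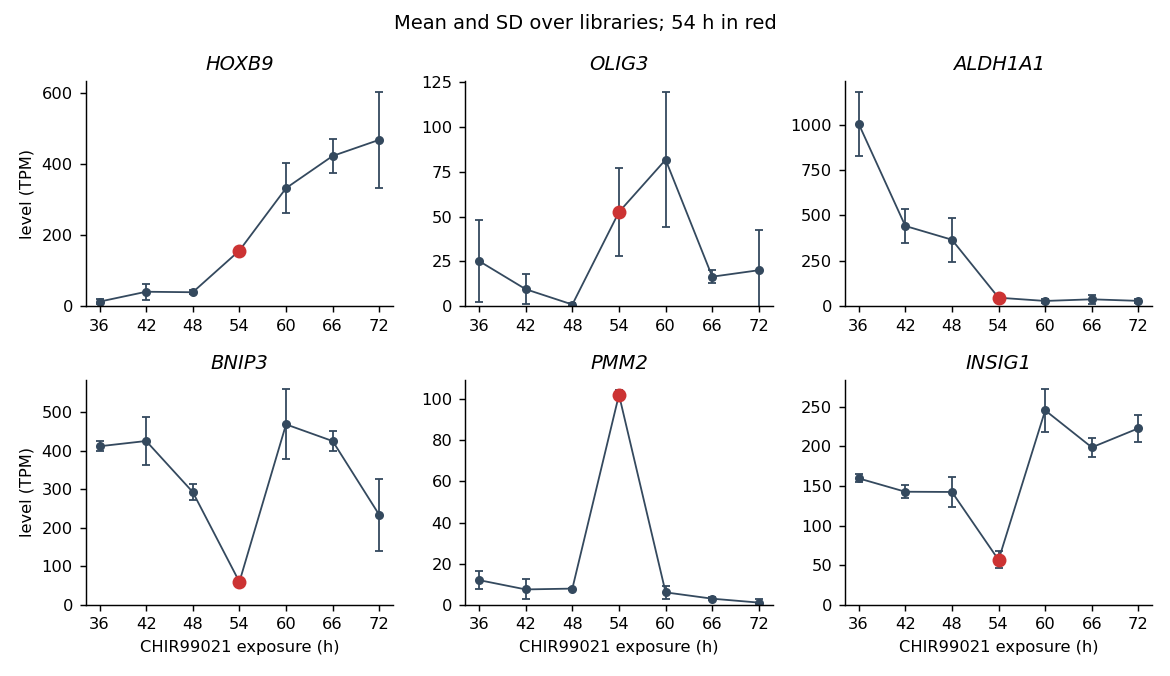
Level in TPM (y axis, linear, a scale for each gene) against hours of CHIR99021 (x axis) for 6 genes from 36 to 72 h, as mean and SD over 3 libraries (2 at 48 h); bars are cut at 0. HOXB9, OLIG3 and ALDH1A1 at 54 h lie between or beside their neighbours, while BNIP3 and INSIG1 dip below both and PMM2 lies above both.

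Around 54 h the list levels, each a mean log2(TPM + 1) over members less its mean over 59 libraries, turned at 54 h and back at 60 h. The hypoxia list was at 0.29 ± 0.15 at 48 h, -0.80 ± 0.14 at 54 h and 0.77 ± 0.26 at 60 h (SD; n = 2, 3 and 3). Ribosome biogenesis was at -0.56 ± 0.11, 1.14 ± 0.03 and 0.16 ± 0.06 at the same times. Cholesterol synthesis was at 0.18 ± 0.10, -0.37 ± 0.08 and 0.64 ± 0.07.

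At 30 h the hypoxia list was at -0.87 ± 0.22 and ribosome biogenesis at 0.96 ± 0.05, near their levels at 54 h. At 6 h, the other time that had stood apart, they were at -0.76 ± 0.02 and 0.92 ± 0.05. The hypoxia list was also low at 4 h and 8 h, at -0.74 ± 0.31 and -0.82 ± 0.22. Cholesterol synthesis at 30 h was at 0.03 ± 0.13, above its level at 54 h, while it was at 0.15 ± 0.05 at 24 h and 0.39 ± 0.10 at 36 h. Levels below that of 54 h were also seen early in the course, at -0.49 ± 0.04 at 2 h and -0.46 ± 0.15 at 4 h.

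**Figure D4:**
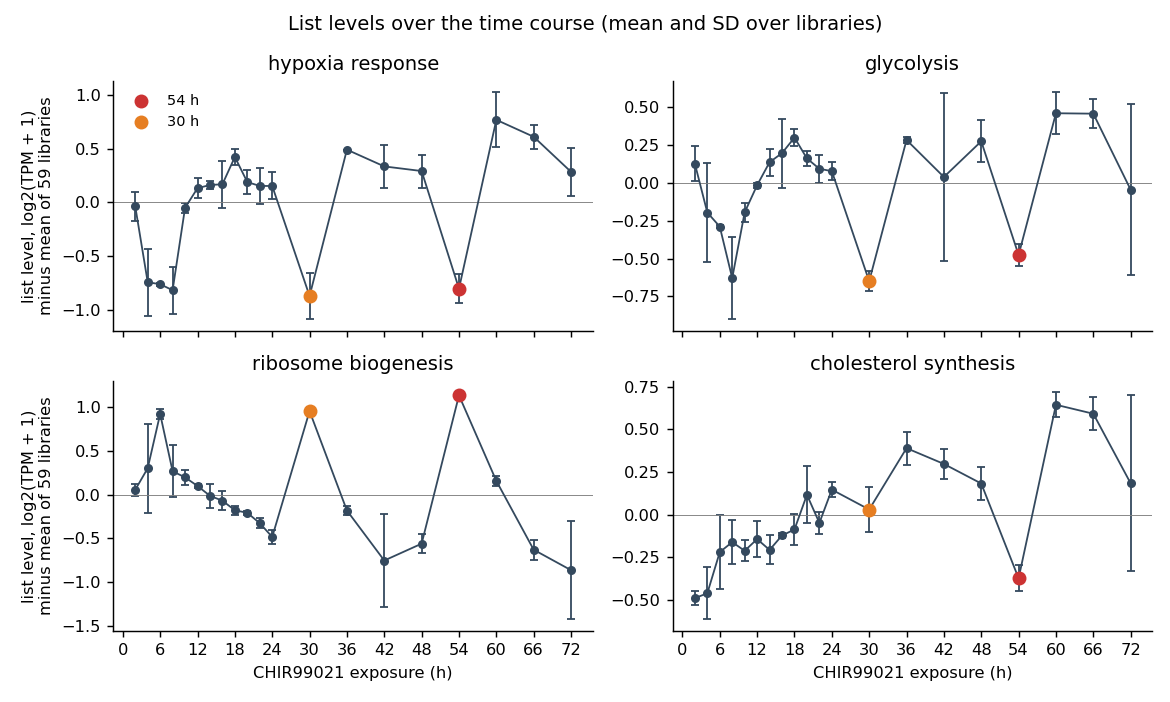
List level, mean log2(TPM + 1) of the tested members less its mean over 59 libraries (y axis), against hours of CHIR99021 (x axis), as mean and SD over libraries, for 4 lists; 54 h is red and 30 h orange. Hypoxia response and ribosome biogenesis turn the same way at both times. Cholesterol synthesis is low at 54 h (-0.37) and dips less at 30 h (0.03), where its neighbours are at 0.15 (24 h) and 0.39 (36 h).

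The 54 h profile was most like that of 30 h. Over 15305 genes the mean profile of 54 h had a Pearson correlation of 0.963 with 30 h, 0.957 with 60 h, 0.954 with 36 h and 0.938 with 48 h; genes are not independent, and all values share the same scaling. The same comparison was therefore made for 30 h against 24 h and 36 h, in 9 libraries of which none entered the comparison at 54 h. Since 30 h was known from the same earlier results, it is no independent support.

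With limma, 390 genes (2.55%) were called higher at 30 h and 298 (1.95%) lower. Genes called higher at both times numbered 280, which is 28.0% of those at 54 h and 71.8% of those at 30 h. Genes called lower at both times numbered 114, which is 41.2% of those at 54 h and 38.3% of those at 30 h. None of the 394 genes called at both times was called in opposite directions. The count at 30 h was 333 without 30 h A2, 448 without 30 h B1 and 1707 without the 3 sparse libraries. The split was 366 higher and 439 lower after quantile normalization and 348 and 398 after median-ratio scaling.

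BNIP3 was at 62 ± 12.4 TPM at 30 h, compared with 363 ± 54.9 TPM at 24 h and 36 h (SD, n = 3 and 6). PFKFB4 was at 4.47 ± 2.3 TPM at 30 h, compared with 64.2 ± 26.1 TPM at 24 h and 36 h, and SLC16A3 at 25.2 ± 15.2 TPM at 30 h, compared with 208 ± 71.6 TPM at 24 h and 36 h. Each of these was lower at 30 h than at its neighbours too, with differences of -2.54 ± 0.19, -3.55 ± 0.40 and -3.07 ± 0.36.

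On the other side, MAT2A, which makes S-adenosylmethionine, had 525, 514 and 592 TPM at 54 h, compared with 44.8 and 94.3 TPM at 48 h and 104, 116 and 93.2 TPM at 60 h, and it was at 713 ± 58.8 TPM at 30 h, compared with 102 ± 37.6 TPM at 24 h and 36 h. PUS1, a pseudouridine synthase, was at 35.4 to 55 TPM at 54 h, against 0 to 25.4 TPM at 48 h and 60 h, and at 43.4 ± 8.45 TPM at 30 h, compared with 8.63 ± 5.64 TPM at 24 h and 36 h; its call at 54 h was lost after either rescaling and without 48 h A2, 60 h A2 or any library of 54 h. WNT4, RRS1 and PMM2 differed at 30 h by 2.74, 2.43 and 2.47. At 30 h the median of the hypoxia list was -1.15 with 17 genes called lower, that of glycolysis -0.73 with 12, and that of ribosome biogenesis 1.29 with 19 called higher.

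The difference at 54 h less that at 30 h holds the comparison by which 54 h was chosen, so limma's calls on it only sort genes and are given without p-values. It called 6 genes, 0.0392% of the 15305. The count was 3 without 30 h A2. INSIG1 was called lower at 54 h and not at 30 h, and it was at 145 ± 31.5 TPM at 30 h, compared with 157 ± 33.5 TPM at 24 h and 36 h. Its difference was -1.72 ± 0.16 at 54 h and -0.10 at 30 h, and they differed by -1.61 ± 0.22. DDIT4 was lower at both times and by more at 54 h, at 289 ± 90.2 TPM at 30 h, compared with 727 ± 71 TPM at 24 h and 36 h, a difference of -1.44 ± 0.29. It was called in 13 of 27 alternatives, and not without 24 h A1, 24 h B1, 30 h A2, 36 h A2, 36 h B1, 48 h A1, 48 h A2, 54 h A1, 54 h A2, 60 h A2 or 60 h B1.

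U2SURP, a splicing factor associated with the U2 particle, had 164, 150.5 and 146 TPM at 54 h, compared with 29.6 and 35.4 TPM at 48 h and 51.8, 60.2 and 56 TPM at 60 h, while it was at 108 ± 10.6 TPM at 30 h, compared with 82.6 ± 11.9 TPM at 24 h and 36 h. The differences at the 2 times differed by 1.43 ± 0.23. YTHDC1, a nuclear reader of methylated adenosine in RNA, had 68.1, 73.6 and 79.9 TPM at 54 h, compared with 45 and 45.9 TPM at 48 h and 35.2, 37.5 and 35.9 TPM at 60 h, while it was at 45.8 ± 2.88 TPM at 30 h, compared with 63.6 ± 6.23 TPM at 24 h and 36 h (1.31 ± 0.22). U2SURP and YTHDC1 were called in each of the 27 alternatives run.

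DBX1, a homeobox factor of interneuron progenitors, had 3.84, 8.89 and 11.8 TPM at 54 h, compared with 0 and 0 TPM at 48 h and 0, 2.74 and 0 TPM at 60 h, while it was at 0.58 ± 1 TPM at 30 h, compared with 5.31 ± 6.1 TPM at 24 h and 36 h (4.18 ± 0.79). BHLHA15 was listed at 0 in all 9 libraries of 24, 30 and 36 h, so the value of 3.26 ± 0.61 is its difference at 54 h alone and says nothing of 30 h. Neither was called with a pseudocount of 0.1. DBX1 was not called without 30 h A2, 30 h B1, 54 h A2 or 54 h B1, and BHLHA15 was not called without 30 h A2, 54 h A1 or 54 h A2. INSIG1 was called in 26 of 27 alternatives.

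Of 24 cholesterol synthesis genes, 10 were called lower at 54 h and 3 at 30 h, with medians of -0.62 and -0.14, and INSIG1 was the only member called for the difference between the 2 times. DDIT4 was the only such member of the hypoxia list, and the glycolysis and ribosome biogenesis lists had none. At an unadjusted p under 0.05 by limma there were 7 of 24 cholesterol synthesis genes and 5 of 30 hypoxia response genes. There were 2 of 20 glycolysis genes and 0 of 35 ribosome biogenesis genes, beside 871 of all 15305 genes. This contrast holds the comparison by which 54 h was chosen, so nothing is read from these counts.

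**Figure D5:**
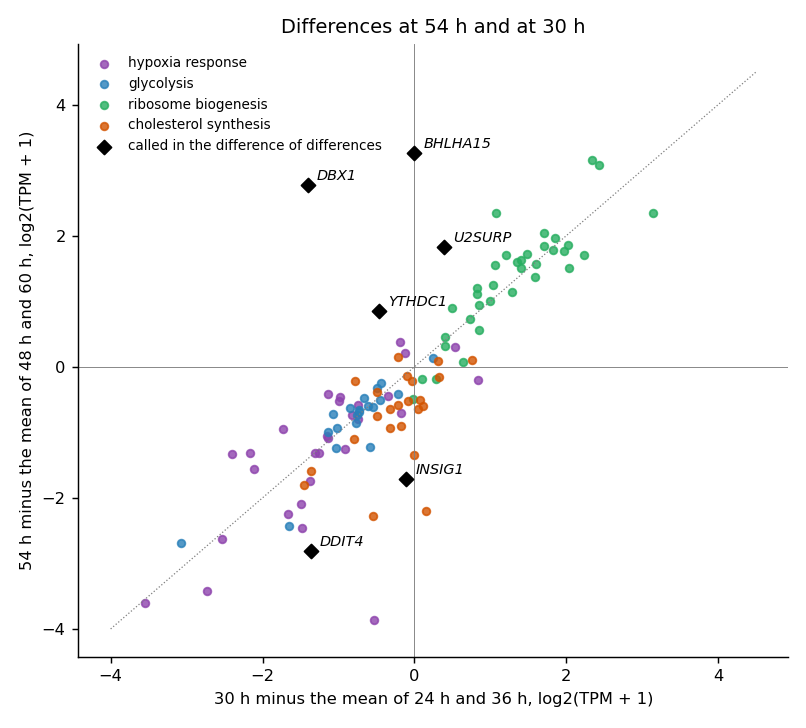
Difference at 54 h, 54 h minus the mean of 48 h and 60 h (y axis), against that at 30 h, 30 h minus the mean of 24 h and 36 h (x axis), both in log2(TPM + 1), for members of 4 lists (colours) and the 6 genes whose differences at the 2 times differed (black diamonds); the dotted line marks equal differences. Ribosome biogenesis members lie mostly to the upper right and hypoxia response and glycolysis members mostly to the lower left, with BHLHE40 (-3.86 at 54 h) far below the line. INSIG1 (-1.72 at 54 h and -0.10 at 30 h) lies below it too.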

How the data were processed

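Messenger RNA was sequenced in 59 libraries of WA09-derived neural stem cells over 20 exposures to CHIR99021. The submitters' processing notes name RSEM 1.2.3, Bowtie 0.12.8, CASAVA 1.8.2 and the build hg19. The annotation that defined the genes is not stated in them. The deposited values are TPM for 19084 genes, which keep no depth, so no counting error can be given.

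Genes with at least 1 TPM in 3 libraries (15305) were kept, and log2(TPM + 1) was fitted with limma 3.58.1 (trend, R 4.3.3) over all 59 libraries with time point as the group. Contrasts were 54 h minus the mean of the 48 h and 60 h means, 60 h minus 48 h, the same local difference at 30 h, and the difference of the local differences. P-values were Benjamini-Hochberg adjusted over all tested genes with a threshold of 0.05. Calls on the 54 h contrast and on the difference of local differences only sort genes, since earlier results chose 54 h. The step was tested on simulated data. The time point, members and lists were chosen with earlier results of these data known. Named were the 12 highest and 12 lowest called differences at 54 h without overlap and averaging 5 TPM or more in either group; up to 8 members of a list, with members that were not called or went the other way; the 6 largest of 60 h minus 48 h in each direction; up to 6 in each direction called alike at 54 h and 30 h; and up to 6 whose local differences differed. Members of a list beyond 8 were chosen after their values were seen. Promoters are from RefSeq, GRCh38.p14. Alternatives were other pseudocounts, filters, scalings, neighbours and sets of libraries, and leaving out each library. Some members of the lists are not reported here by name.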

Additional observations from a re-analysis of the deposited data

Results flagged for a closer look

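6 genes stood out because their difference at 54 h from the neighbouring times differed from that at 30 h, by limma's call on the difference of differences over 15305 genes. Since both times were chosen from earlier results and this contrast holds the comparison that chose 54 h, the call is a description. That value was -1.61 for INSIG1, -1.44 for DDIT4, 4.18 for DBX1, 3.26 for BHLHA15, 1.43 for U2SURP and 1.31 for YTHDC1, each on the log2(TPM + 1) scale. The summed TPM of all 8 neuron markers was lower in every library of 54 h than in any of 48 h and 60 h. The list level, a mean over the 25 tested neuron genes, did not share this. It was 0.74 ± 0.16 at 54 h, between 0.69 ± 0.13 at 48 h and 0.84 ± 0.11 at 60 h (SD). The median difference of these 25 genes was -0.35, and -0.43 to -0.07 in the alternatives. For 7 of them all 3 libraries of 54 h lay below all 5 others, and for 2 above. Over all tested genes these shares were 4.47% and 12.9%. The part of cell types in these 6 genes was not tested. BHLHA15 was listed at 0 outside 54 h among these times, so its value is the difference at 54 h alone, and it depends on the pseudocount. In groups of 2 or 3 libraries no library was tested for standing apart.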

How the results depend on the processing

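Single genes were followed for 114 genes called at 54 h. These were the genes named for the highest and lowest differences at 54 h, for calls alike at 54 h and 30 h, or for local differences that differed. To them were added up to 8 called members of each list, those with the largest absolute differences, so weaker called members are not covered. Of the 114, 47 kept their call in each of 14 alternatives (other pseudocounts, quantile or median-ratio scaling, 48 h or 60 h alone, and leaving out each of the 8 libraries), and 67 lost it in at least 1. Of the 1596 values, 1262 stayed past the threshold in the same direction, 330 no longer passed and 4 changed sign: NR1D2 was -0.060 against 48 h alone, RPS4X was 0.022 after quantile normalization, and ALDH1A1 was 0.75 and OLIG3 -0.67 against 60 h alone. The count of 1278 genes at 54 h was 2598 without the 3 libraries under 10000 genes, none of which is in these contrasts, 698 against 60 h alone, 1941 against 42, 48, 60 and 66 h, and 784 to 1245 when 1 library was left out. The 344 genes of 60 h minus 48 h were 23 with only the contrast's libraries fitted, 1087 without the 3 libraries under 10000 genes, and 167 to 387 when 1 was left out. The 688 genes at 30 h were 1707 without the 3, and 333 to 584 when 1 was left out. The 6 genes that differed between 54 h and 30 h were 3 with a pseudocount of 0.1, 10 after quantile normalization, 18 without the 3 libraries, and 3 to 9 when 1 was left out. The causes were not tested. Whether the labels A1, A2 and B1 pair libraries across times is not known. Over 7 pairs of same-labelled libraries the correlations of their deviations ran from -0.00029 to 0.112, and 1 was over 0.1. Pairs with unlike labels were not computed, so these values cannot decide it. With these labels as a replicate block, the counts were 1276, 310, 682 and 6. Depth is unknown and limits low genes most.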

Other observations

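In the smaller lists few members were called at 54 h. Those called higher were 1 of 14 ERK feedback genes, 1 of 17 WNT feedback genes, 2 of 18 Notch pathway genes, 2 of 20 BMP and TGF-beta response genes (with 1 lower), 2 of 15 contractile genes and 3 of 15 oxidative stress genes, where 6.54% of all tested genes were called higher. The medians of these lists were 0.44, 0.31, -0.05, 0.15, 0.01 and 0.02, beside 0.10 over all tested genes. DUSP6, a phosphatase that ERK signalling induces, had 135, 169.6 and 152 TPM at 54 h, compared with 39.9 and 40.9 TPM at 48 h and 64, 85.5 and 81 TPM at 60 h, and it was not called without 54 h A2 or 54 h B1. AXIN2, a feedback inhibitor of WNT signalling, had 95.8, 109 and 85.9 TPM at 54 h, compared with 34.2 and 32.3 TPM at 48 h and 46.3, 64.3 and 66.2 TPM at 60 h. LFNG, which modifies Notch receptors, was at 125 to 149 TPM at 54 h, against 46.1 to 118 TPM at 48 h and 60 h and was not called without 48 h A1 or 54 h A2. NOTCH2, a receptor, was at 86.9 to 101 TPM at 54 h, against 50.5 to 63.7 TPM at 48 h and 60 h and was not called after either rescaling or without 48 h A1, 54 h A1 or 54 h B1. ID3, a target of BMP signalling, had 774, 849 and 706 TPM at 54 h, compared with 432 and 409 TPM at 48 h and 369.9, 511 and 379 TPM at 60 h. BMP4, a ligand of that pathway, called lower, was at 6.82 to 17.1 TPM at 54 h, against 12.9 to 48.7 TPM at 48 h and 60 h and was not called without 48 h A1, 48 h A2, 54 h A1, 54 h A2, 60 h A1 or 60 h B1. TPM1 and VCL, a tropomyosin and the adhesion protein vinculin, were the contractile genes called. TPM1 was at 972 to 1113 TPM at 54 h, against 350.3 to 491 TPM at 48 h and 60 h. VCL was at 286 to 328 TPM at 54 h, against 101 to 155 TPM at 48 h and 60 h. HMOX1, haem oxygenase, had 22.2, 25.2 and 16 TPM at 54 h, compared with 4.05 and 9.51 TPM at 48 h and 6.81, 0 and 0 TPM at 60 h, and TXNRD1, thioredoxin reductase, was at 392 to 447 TPM at 54 h, against 165 to 229 TPM at 48 h and 60 h.

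KRT19, a keratin, had 41.4, 42.1 and 34.1 TPM at 54 h, compared with 279 and 194 TPM at 48 h and 151, 192 and 252 TPM at 60 h, while TFAP2C, a transcription factor of surface ectoderm, was at 3.16 to 4.77 TPM at 54 h, against 0 to 0.36 TPM at 48 h and 60 h. PLOD2, a lysyl hydroxylase of collagen, had 70.4, 57.8 and 83.4 TPM at 54 h, compared with 176 and 178 TPM at 48 h and 319, 421 and 376 TPM at 60 h, and LAMA1, a laminin chain, was at 27 to 35.8 TPM at 54 h, against 47.9 to 77.2 TPM at 48 h and 60 h; these were the 2 genes called among 27 of the extracellular matrix, and LAMA1 was not called without 54 h A1. TXNIP, which MondoA induces when glucose is plentiful, had 164, 181 and 162 TPM at 54 h, compared with 464 and 485 TPM at 48 h and 129.6, 201 and 259 TPM at 60 h, so that 48 h and not 54 h stood apart. None of 20 serum and immediate early genes, 12 neural crest genes, 8 mesoderm genes or 9 endothelial and blood genes was called at 54 h. At an unadjusted p under 0.05 by limma there were 5, 1, 1 and 2, beside 3124 of all 15305 tested genes. Nothing is read from those counts.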
